A study of Homo sapiens with 21 samples.

Results

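Genes of the contractile actin cytoskeleton and the vimentin gene were followed through RNA-Seq of SK-N-BE(2) cells, an established neuroblastoma line, after silencing of ARID1A and ARID1B, the mutually exclusive ARID subunits of the BAF chromatin remodelling complex. The 10 genes were chosen by symbol, out of 60728 genes in the deposited table: the alpha-smooth muscle actin gene ACTA2, the transgelin gene TAGLN, the calponin genes CNN1, CNN2 and CNN3, the tropomyosin genes TPM1 and TPM2, the caldesmon gene CALD1, the myosin light chain gene MYL9 and VIM. All 10 were present in the table, and 9 had enough reads to be tested. MYL9 did not.

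The study compared 7 conditions of 3 libraries each, described by the submitters as biological triplicates. Cells carried either a non-silencing control shRNA (Control) or lentiviral shRNAs labelled shARID1A.2 or shARID1A.4, shARID1B.2 or shARID1B.3, and shARID1A/B.2.3 or shARID1A/B.4.2, and RNA was collected 72 h after transduction. All cells, Control included, had been transduced with lentivirus, and all came from a single cell line. Each silenced label stands for 2 conditions that differ in the shRNAs used, so that differences between the conditions of a label can be set beside differences from Control. The 21 libraries held 27954334 to 41077638 reads on genes (median 34973565), and the deposited values are these reads divided by a scaling factor for each library, so that 1 unit is close to 1 read. The levels below are on that scale. Differences are on the log2(value + 1) scale, from limma fitted on all 18584 genes with enough reads, and a gene is called higher or lower at a Benjamini-Hochberg adjusted p below 0.05 over all of them.

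In a cell, actin filaments gain contractile force when myosin II pulls on them. Calponins, caldesmon, transgelin and tropomyosins bind along the filament and set how strongly it is bundled, stabilised and made accessible to myosin, while vimentin forms a separate intermediate filament network typical of mesenchymal cells. In smooth muscle and myofibroblasts many of these genes are controlled by serum response factor (SRF) and its actin-sensing cofactors of the MRTF family, which bind the CArG box in DNA, and TEAD factors bind a motif with the core CATTCC next to many of the same genes.

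The levels of ARID1A and ARID1B did not follow the labels. In the Control libraries ARID1A was at 6097, 6374 and 6463 and ARID1B at 5793, 5804 and 5791. In the 6 libraries labelled shARID1A both genes were low, ARID1A between 2109 and 2289 and ARID1B between 2224 and 3126. Those labelled shARID1B had low ARID1A, between 1882 and 2507, whereas ARID1B stayed between 4913 and 6182, -0.21 ± 0.02 (SE) on the log2 scale from Control in shARID1B.2 and 0.07 ± 0.02 (SE) in shARID1B.3. Those labelled shARID1A/B had low ARID1B, between 1881 and 2651, with ARID1A between 5352 and 5752, -0.16 ± 0.03 (SE) and -0.21 ± 0.03 (SE) from Control in shARID1A/B.2.3 and shARID1A/B.4.2. The labels are used as deposited, and each group below is therefore the libraries so labelled. Both genes low is the state of the libraries labelled shARID1A, ARID1A low that of the libraries labelled shARID1B, and ARID1B low that of the libraries labelled shARID1A/B. The levels also differed between the conditions of a label. ARID1B was at 2224 to 2252 in shARID1A.2 and 3065 to 3126 in shARID1A.4, a log2 difference of -0.47 (limma adjusted p = 2.03e-15). It was at 2540 to 2651 in shARID1A/B.2.3 and 1881 to 1955 in shARID1A/B.4.2, a difference of 0.45 (adjusted p = 5.79e-15). ARID1A was at 1882 to 1962 in shARID1B.2 and 2450 to 2507 in shARID1B.3, a difference of -0.37 (adjusted p = 3.31e-11).

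**Figure D1:**
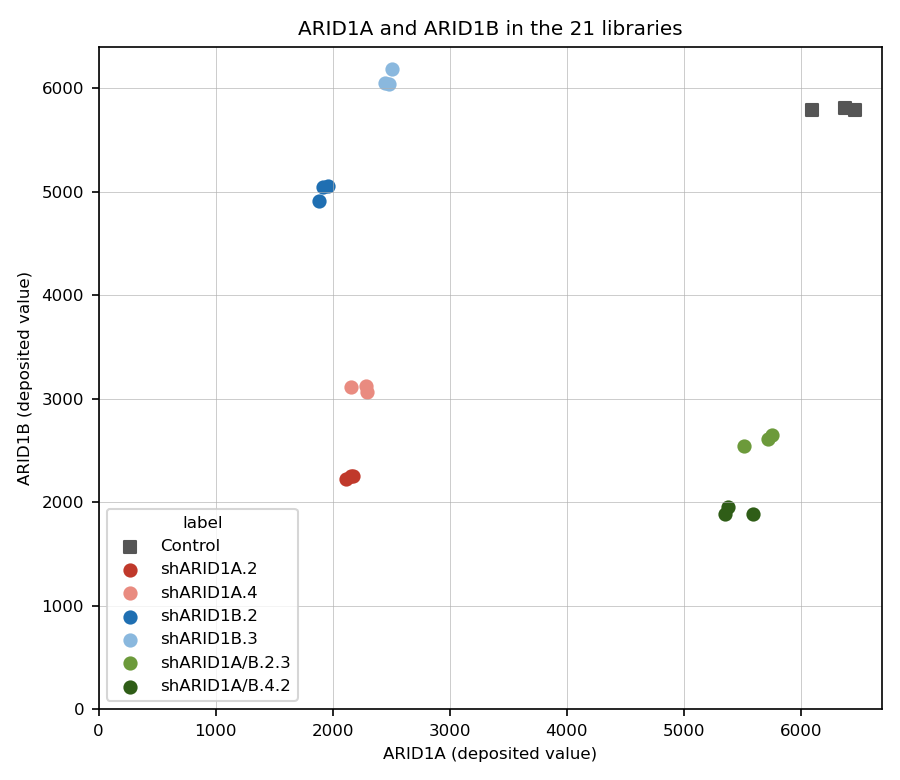
ARID1A (horizontal axis) and ARID1B (vertical axis) in each of the 21 libraries, as deposited values, coloured by condition. The libraries labelled shARID1A lie low on both axes, those labelled shARID1B lie low on the ARID1A axis alone, and those labelled shARID1A/B lie low on the ARID1B axis with ARID1A between 5352 and 5752.

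Promoter windows of the members were searched for both motifs. RefSeq (GRCh38.p14) windows from 250 bases before to 50 bases after the start were found for 8 of the 10 genes, 14 windows in all, and TAGLN and MYL9 were not matched. A strict CArG box, CC and GG around 6 bases that are all A or T, was present in 1 member window, that of CNN2, while 1.29% of the 35116 windows of all genes held one. With 1 of the 6 middle bases C or G, a looser form added after the windows had been seen, it was present in 2 member windows, 1 of ACTA2 with 2 matches and 1 of CALD1, against 6.94% of all windows. The letters CATTCC on either strand were present in 4 member windows, of ACTA2, CNN3 and CALD1, against 14.03% of all windows. The 250 bases before the start are shown for ACTA2, the gene that gives smooth muscle actin, and for the 3 calponins, whose levels went separate ways in these libraries. Capitals mark the strict CArG box in CNN2, 89 bases before the start, the looser ones in ACTA2, 121 and 71 bases before, and CATTCC in ACTA2 (on the reverse strand, 183 bases before the start) and in CNN3 (142 bases before). CNN1 had none of them in this window. ACTA2 and CNN3 each have a second window, at a start farther upstream, which held none of them and is not shown (chr10:88991338-88991587 and chr1:94927111-94927360). Each sequence is written 5′ to 3′ on the gene's own strand, which is the minus strand for ACTA2 (chr10:88952774-88953023) and CNN3 (chr1:94925770-94926019) and the plus strand for CNN1 (chr19:11538601-11538850) and CNN2 (chr19:1026358-1026607).
ACTA2: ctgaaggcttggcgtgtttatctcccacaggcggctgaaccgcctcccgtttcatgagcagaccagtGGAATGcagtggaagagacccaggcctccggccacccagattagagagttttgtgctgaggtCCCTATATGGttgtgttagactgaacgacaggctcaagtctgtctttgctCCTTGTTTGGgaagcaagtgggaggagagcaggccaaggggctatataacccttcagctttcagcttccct
CNN1: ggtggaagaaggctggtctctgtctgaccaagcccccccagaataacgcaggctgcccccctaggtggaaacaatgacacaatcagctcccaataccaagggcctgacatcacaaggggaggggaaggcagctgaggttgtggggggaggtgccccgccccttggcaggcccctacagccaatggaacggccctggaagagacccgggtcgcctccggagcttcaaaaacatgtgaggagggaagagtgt
CNN2: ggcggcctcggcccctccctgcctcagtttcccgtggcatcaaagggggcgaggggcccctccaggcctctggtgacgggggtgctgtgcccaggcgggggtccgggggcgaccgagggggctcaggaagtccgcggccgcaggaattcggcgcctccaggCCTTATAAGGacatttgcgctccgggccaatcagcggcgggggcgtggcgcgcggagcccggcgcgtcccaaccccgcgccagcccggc
CNN3: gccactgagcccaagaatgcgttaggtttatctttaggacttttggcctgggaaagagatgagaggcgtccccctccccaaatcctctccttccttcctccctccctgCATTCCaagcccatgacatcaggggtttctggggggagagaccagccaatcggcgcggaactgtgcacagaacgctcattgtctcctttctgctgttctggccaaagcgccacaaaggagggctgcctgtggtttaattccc
These matches describe the letters of the windows, and binding of any factor was not measured.

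In Control cells the members spanned a wide range of levels. Per kilobase of annotated exon (GENCODE 29, all exons of a gene merged), the mean deposited value was highest for VIM at 10511, followed by CNN3 at 2919, CALD1 at 1343, TPM1 at 729.7, ACTA2 at 432, TAGLN at 420.1, CNN2 at 407, TPM2 at 159, CNN1 at 51.6 and MYL9 at 0.51. CNN3, the calponin found in many non-muscle tissues, was thus the most abundant calponin, and CNN1, the smooth muscle form, the least. Together the members took 0.171 to 0.272% of a library's reads, of which VIM was the largest part.

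Against Control, the members were mostly lower, with CNN1 as the main exception. In shARID1A.2 all 9 tested members were called, 7 lower and 2 higher, where 76.1% of all tested genes were called, 38.2% lower and 37.9% higher. In shARID1A.4 9 were called, 8 lower and 1 higher, beside 73.6% of all genes (36.6% lower and 37% higher). In shARID1B.2 8 were called, 6 lower and 2 higher, beside 65.6% (34% and 31.6%), and in shARID1B.3 8, 7 lower and 1 higher, beside 63.9% (32% and 31.9%). In shARID1A/B.2.3 6 were called, 4 lower and 2 higher, beside 69.2% (34% and 35.2%), and in shARID1A/B.4.2 7, 5 lower and 2 higher, beside 71.2% (36.1% and 35.1%). Most genes of the transcriptome passed this test in every condition, and the members' counts in either direction lay near that background, while 4 to 8 of the 9 were lower, above the 32 to 38.2% of all genes. The description below rests on sizes and directions. Whether libraries overlapped Control is also described. The share of all genes without overlap was not counted, so a lack of overlap is not taken as particular to the members. The median log2 difference of the 9 members was -0.997 in shARID1A.2, -0.67 in shARID1A.4, -0.40 in shARID1B.2, -0.51 in shARID1B.3, -0.18 in shARID1A/B.2.3 and -0.72 in shARID1A/B.4.2, beside 0.01 to 0.02 for all genes tested. When a size of at least 1 on the log2 scale (2-fold) was also asked, a rule added after these values were seen, the members called were 5, 4, 2, 1, 0 and 2 in the same order, where 24.8, 21.4, 12, 11.8, 16.1 and 18.4% of all genes were called.

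**Figure D2:**
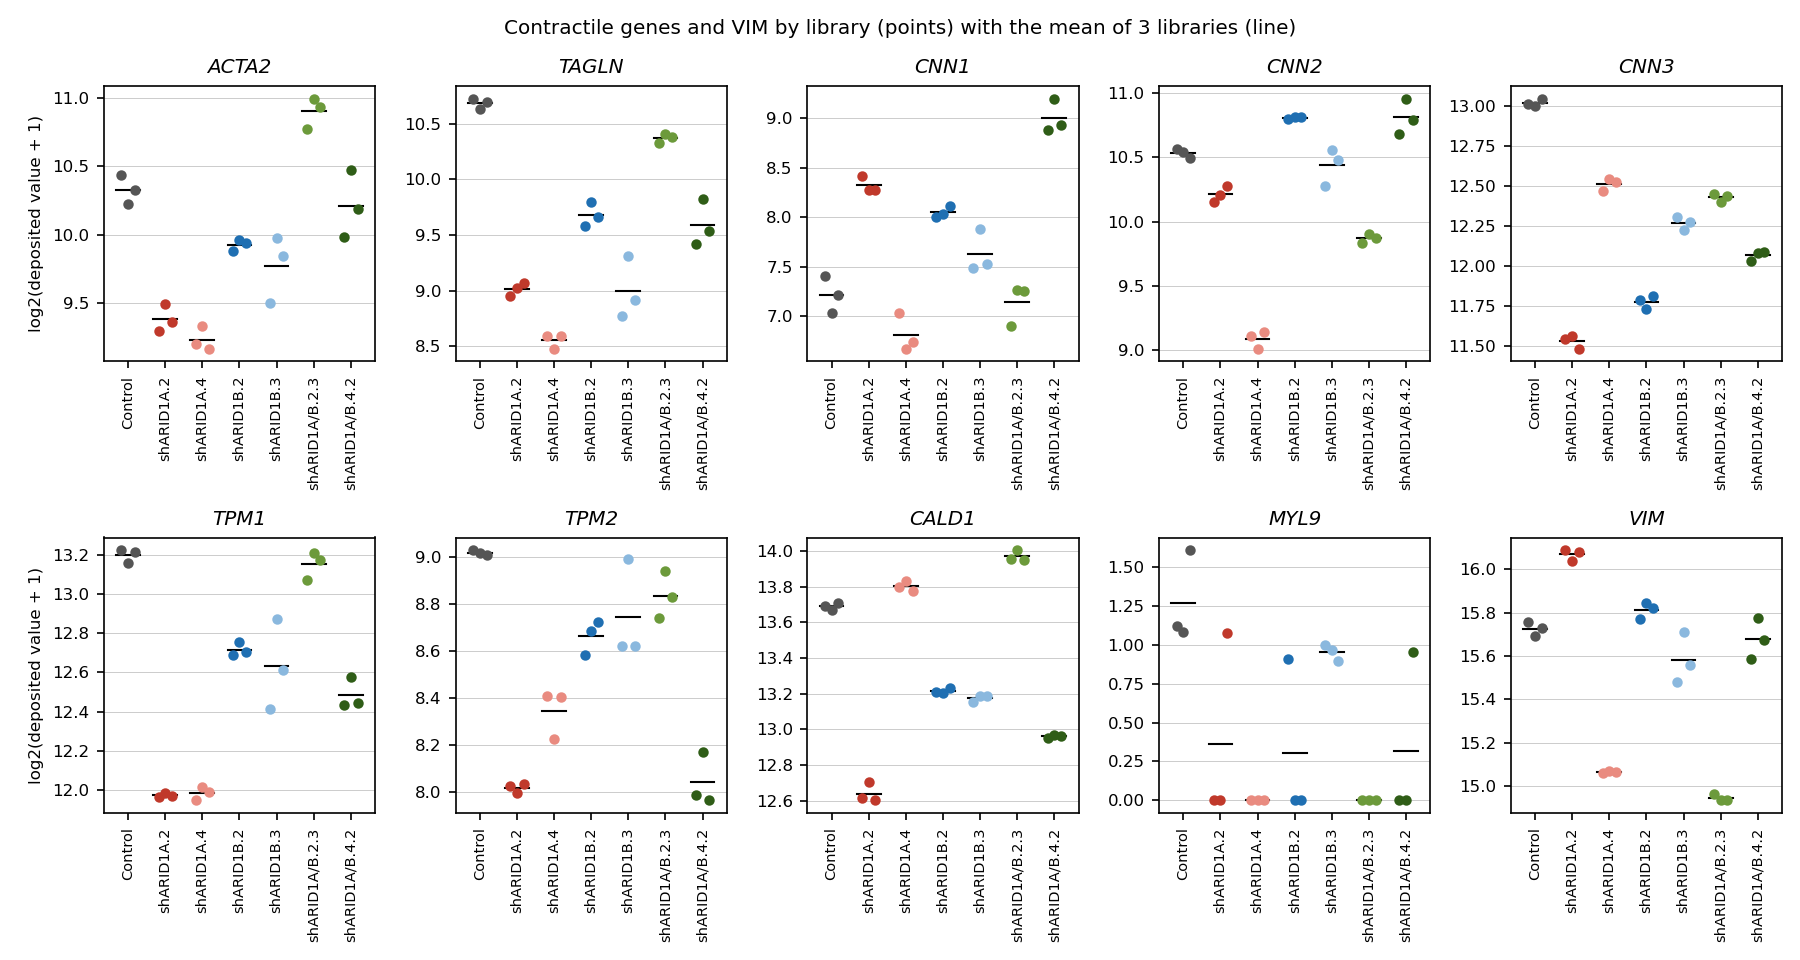
Each panel shows 1 gene, with log2(deposited value + 1) on the vertical axis and the 7 conditions on the horizontal axis. Points are single libraries and lines the means of 3. TAGLN and CNN3 lie below every Control library in all 6 silenced conditions, CNN1 lies above Control in 4 of them, and MYL9 is at 0 to 2 reads throughout.

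TAGLN (ENSG00000149591.17, chr11:117199321-117204782, plus strand), which encodes transgelin, an actin cross-linking protein of smooth muscle and an SRF target, showed the largest decrease of the members in 4 of the 6 conditions and was lower in all of them. Its level was 1693, 1585 and 1659 in the Control libraries, 495, 521 and 536 in those labelled shARID1A.2 and 385, 356 and 385 in those labelled shARID1A.4. It was 764, 888 and 808 in shARID1B.2 and 437, 634 and 482 in shARID1B.3. In shARID1A/B.2.3 it was 1284, 1355 and 1336, and in shARID1A/B.4.2 683, 905 and 744. None of the 18 silenced libraries reached the lowest Control library. Relative to Control the log2 difference was -1.67 ± 0.10 (SE) in shARID1A.2 and -2.13 ± 0.10 (SE) in shARID1A.4, the latter 4.38-fold lower (adjusted p = 4.10e-16). It was -1.01 ± 0.10 (SE) in shARID1B.2, -1.68 ± 0.10 (SE) in shARID1B.3 and -1.09 ± 0.10 (SE) in shARID1A/B.4.2. The smallest decrease, -0.31 ± 0.10 (SE) in shARID1A/B.2.3, was 1.24-fold lower (adjusted p = 0.00598). A call of lower in all 6 conditions was made for 7.54% of all tested genes. In the order of levels, shARID1B.2 and shARID1A/B.4.2 were neighbours that were not called different (adjusted p = 0.458, 95% interval of the log2 difference -0.11 to 0.28), and likewise shARID1B.3 and shARID1A.2 (adjusted p = 0.881, 95% interval of the log2 difference -0.22 to 0.18). The 3′ end of TAGLN overlaps PCSK7 on the opposite strand, and PCSK7 was called higher than Control in 5 of the 6 conditions, with log2 differences from 0.03 in shARID1B.3 to 0.34 in shARID1A/B.4.2.

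ACTA2 (ENSG00000107796.13, chr10:88935074-88991339, minus strand) encodes the actin of smooth muscle cells and myofibroblast stress fibres. It was at 1385, 1192 and 1282 in Control, 627, 720.0 and 657 in shARID1A.2 and 588, 643 and 573 in shARID1A.4. It was at 943, 993 and 979 in shARID1B.2 and 722, 1003 and 919 in shARID1B.3. The libraries of these 4 conditions all lay below Control. shARID1A/B.2.3 held 1749.7, 2038 and 1956, all above Control, and shARID1A/B.4.2 held 1009, 1418 and 1161, a range that overlapped Control. The log2 difference was -0.94 ± 0.10 (SE) in shARID1A.2, -1.09 ± 0.10 (SE) in shARID1A.4, -0.40 ± 0.10 (SE) in shARID1B.2 and -0.56 ± 0.10 (SE) in shARID1B.3 (adjusted p from 5.54e-10 to 0.00125). It was 0.57 ± 0.10 (SE) in shARID1A/B.2.3 (adjusted p = 2.10e-05), an increase of 1.49-fold, and -0.12 ± 0.10 (SE) in shARID1A/B.4.2 (adjusted p = 0.313). Without replicate 2 of shARID1A/B.4.2, which was the highest of its 3 libraries, that last difference became -0.25 and was called (adjusted p = 0.0306). shARID1B.2 was not called different from shARID1B.3 (adjusted p = 0.188, 95% interval of the log2 difference -0.06 to 0.36) nor shARID1A.2 from shARID1A.4 (adjusted p = 0.178, 95% interval of the log2 difference -0.06 to 0.36). ACTA2 overlaps the start of FAS and the antisense gene ACTA2-AS1, which were at most 40.3 and 19.2 in any library. Its coding sequence is also close to those of the other actin genes, between which shared reads may have been split.

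Both tropomyosins, coiled coils that lie along the actin filament and regulate its access to myosin, were lower in 5 of the 6 conditions. TPM1 (ENSG00000140416.23, chr15:63042632-63071915, plus strand) was at 9561, 9147 and 9481 in Control, 4001, 4047 and 4007 in shARID1A.2 and 3949, 4139 and 4063 in shARID1A.4. It was at 6592, 6920.5 and 6669 in shARID1B.2, 5444, 7500.5 and 6249.9 in shARID1B.3, 8587, 9475 and 9237 in shARID1A/B.2.3 and 5525, 6099 and 5561 in shARID1A/B.4.2. All libraries of 5 conditions lay below Control, and shARID1A/B.2.3 overlapped it. The log2 difference of TPM1 was -1.23 ± 0.07 (SE) in shARID1A.2 and -1.21 ± 0.07 (SE) in shARID1A.4, 2.34-fold lower and 2.32-fold lower, and these conditions were not called different from each other (adjusted p = 0.882, 95% interval of the log2 difference -0.12 to 0.15). It was -0.48 ± 0.07 (SE) in shARID1B.2, -0.57 ± 0.07 (SE) in shARID1B.3 and -0.72 ± 0.07 (SE) in shARID1A/B.4.2 (adjusted p from 1.10e-14 to 5.35e-07 over these 5). In shARID1A/B.2.3 it was -0.05 ± 0.07 (SE) (adjusted p = 0.535, 95% interval -0.18 to 0.09). In shARID1B.3 the TPM1 libraries were spread more widely than elsewhere, 6398 ± 1036 (SD, n = 3), with replicate 2 the highest.

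TPM2 (ENSG00000198467.16, chr9:35681992-35690121, minus strand) was expressed at a lower level, 522, 517 and 514 in Control. It was at 260.1, 254 and 262 in shARID1A.2 and 253, 287 and 249 in shARID1A/B.4.2, the lowest conditions, which were not called different (adjusted p = 0.848, 95% interval of the log2 difference -0.15 to 0.19). It was at 339, 298 and 338 in shARID1A.4, 383, 411 and 422 in shARID1B.2, 393, 507 and 393 in shARID1B.3 and 426, 489.7 and 453 in shARID1A/B.2.3. Every silenced library was below the lowest Control library, replicate 2 of shARID1B.3 only narrowly (507 against 514). The log2 difference was -0.997 ± 0.08 (SE) in shARID1A.2, -0.67 ± 0.08 (SE) in shARID1A.4, -0.35 ± 0.08 (SE) in shARID1B.2, -0.27 ± 0.08 (SE) in shARID1B.3 and -0.98 ± 0.08 (SE) in shARID1A/B.4.2. In shARID1A/B.2.3 it was -0.18 ± 0.08 (SE) and missed the threshold narrowly (adjusted p = 0.0535). Without replicate 2 of shARID1A/B.2.3 it was called, at -0.23 (adjusted p = 0.028). The 3 conditions shARID1A/B.2.3, shARID1B.3 and shARID1B.2 followed each other in the order of levels with no called difference between neighbours (adjusted p = 0.336 and 0.405).

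The 3 calponins, which bind actin filaments and tropomyosin and restrain myosin's ATPase, did not move together. CNN3 (ENSG00000117519.16, chr1:94896949-94927278, minus strand), the acidic calponin of non-muscle cells, was lower in all 6 conditions, a call made for 7.54% of all tested genes. It was at 8248, 8163 and 8445 in Control, 2975, 3016 and 2855 in shARID1A.2 and 5652, 5953 and 5870.0 in shARID1A.4. It was at 3521, 3388 and 3594 in shARID1B.2, 5058, 4777 and 4943 in shARID1B.3, 5576, 5401 and 5541 in shARID1A/B.2.3 and 4173, 4329.7 and 4349.5 in shARID1A/B.4.2. No silenced library overlapped Control, and the 3 libraries of each condition lay close together. The decrease was largest in shARID1A.2, -1.49 ± 0.03 (SE) or 2.81-fold lower, and in shARID1B.2, -1.24 ± 0.03 (SE) or 2.37-fold lower. It was -0.95 ± 0.03 (SE) in shARID1A/B.4.2, -0.75 ± 0.03 (SE) in shARID1B.3, -0.59 ± 0.03 (SE) in shARID1A/B.2.3 and -0.51 ± 0.03 (SE) in shARID1A.4 (adjusted p from 1.39e-23 to 3.74e-14 over the 6). For CNN3 every pair of neighbours in the order of levels was called different, the closest being shARID1A.4 and shARID1A/B.2.3 (adjusted p = 0.0195, 95% interval of the log2 difference 0.02 to 0.14).

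CNN1 (ENSG00000130176.8, chr19:11538717-11550323, plus strand), the basic calponin used as a marker of differentiated smooth muscle, was the member most often higher. It was at 169, 129.8 and 148 in Control, 339.9, 308 and 309.6 in shARID1A.2 and 130.1, 101 and 106 in shARID1A.4. It was at 255, 262 and 276 in shARID1B.2, 178, 235 and 184 in shARID1B.3, 118, 153 and 152 in shARID1A/B.2.3 and 472, 586 and 486 in shARID1A/B.4.2. The libraries of shARID1A.2, shARID1B.2, shARID1B.3 and shARID1A/B.4.2 all lay above Control, whereas those of shARID1A.4 and shARID1A/B.2.3 overlapped it. The increase was 1.78 ± 0.12 (SE) in shARID1A/B.4.2, 3.44-fold higher (adjusted p = 2.29e-12), and 1.10 ± 0.12 (SE) in shARID1A.2, 2.15-fold higher. It was 0.83 ± 0.12 (SE) in shARID1B.2 and 0.41 ± 0.12 (SE) in shARID1B.3. The latter missed the threshold without replicate 2 of shARID1B.3 (0.29, adjusted p = 0.0541). CNN1 was lower in shARID1A.4, -0.40 ± 0.12 (SE) (adjusted p = 0.0049), and at -0.08 ± 0.12 (SE) in shARID1A/B.2.3 (adjusted p = 0.584, 95% interval -0.33 to 0.17). In the order of levels shARID1A.2 and shARID1B.2 were not called different (adjusted p = 0.0578, 95% interval of the log2 difference 0.02 to 0.53). These levels rest on 85 to 759 reads a library, and per kilobase the gene lay below the other calponins in every condition.

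CNN2 (ENSG00000064666.15, chr19:1026581-1039068, plus strand), a calponin of smooth muscle and of many other cell types, moved in both directions. It was at 1515, 1489.7 and 1445 in Control, 1137, 1183 and 1244 in shARID1A.2 and 551, 515 and 564 in shARID1A.4. It was at 1783, 1798 and 1803 in shARID1B.2, 1241, 1506 and 1424 in shARID1B.3, 912, 959 and 937 in shARID1A/B.2.3 and 1646, 1989 and 1769 in shARID1A/B.4.2. shARID1A.4 stood lowest, with no library above 564, and shARID1B.2 and shARID1A/B.4.2 lay above Control. The log2 difference was -1.45 ± 0.06 (SE) in shARID1A.4 (2.73-fold lower), -0.66 ± 0.06 (SE) in shARID1A/B.2.3 and -0.32 ± 0.06 (SE) in shARID1A.2. It was 0.28 ± 0.06 (SE) in shARID1B.2 and 0.28 ± 0.06 (SE) in shARID1A/B.4.2, conditions that were not called different (adjusted p = 0.99, 95% interval of the log2 difference -0.12 to 0.12). In shARID1B.3 it was -0.10 ± 0.06 (SE) (adjusted p = 0.161), and it was called lower at -0.16 without replicate 2 of that condition (adjusted p = 0.0323).

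CALD1 (ENSG00000122786.20, chr7:134744252-134970728, plus strand) encodes caldesmon, which binds actin, tropomyosin and myosin and inhibits actomyosin ATPase activity. It was at 13258, 13011 and 13375 in Control, 6263, 6676 and 6215 in shARID1A.2 and 14273, 14574 and 14048 in shARID1A.4. It was at 9473, 9439.6 and 9637 in shARID1B.2, 9119.8, 9329.5 and 9312 in shARID1B.3, 15906, 16459.5 and 15838 in shARID1A/B.2.3 and 7911, 8011 and 7998 in shARID1A/B.4.2. Replicates were tight, and no condition overlapped Control: shARID1A.4 and shARID1A/B.2.3 lay above it and the other 4 below. The log2 difference was -1.05 ± 0.02 (SE) in shARID1A.2 (2.07-fold lower), -0.73 ± 0.02 (SE) in shARID1A/B.4.2, -0.51 ± 0.02 (SE) in shARID1B.3 and -0.47 ± 0.02 (SE) in shARID1B.2. It was 0.11 ± 0.02 (SE) in shARID1A.4 (adjusted p = 1.62e-04) and 0.28 ± 0.02 (SE) in shARID1A/B.2.3 (adjusted p = 1.37e-10). shARID1B.2 and shARID1B.3 were not called different (adjusted p = 0.143, 95% interval of the log2 difference -0.01 to 0.09), and all other neighbours in the order were.

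VIM (ENSG00000026025.16, chr10:17228259-17237593, plus strand), the intermediate filament gene of mesenchymal cells, had the highest level of the members. It was at 55410.2, 52944 and 54293 in Control, 69666, 67321 and 69227 in shARID1A.2 and 34112, 34417 and 34277 in shARID1A.4. It was at 55919.7, 58784 and 57819 in shARID1B.2, 45637, 53589 and 48193 in shARID1B.3, 31929, 31362 and 31307 in shARID1A/B.2.3 and 49195, 56012 and 52245 in shARID1A/B.4.2. shARID1A.2 lay above every Control library, shARID1A.4 and shARID1A/B.2.3 well below. shARID1B.2 lay just above Control, and shARID1B.3 and shARID1A/B.4.2 overlapped it. The log2 difference was -0.78 ± 0.04 (SE) in shARID1A/B.2.3 (1.72-fold lower) and -0.66 ± 0.04 (SE) in shARID1A.4 (1.58-fold lower), and 0.34 ± 0.04 (SE) in shARID1A.2 (1.27-fold higher). It was -0.14 ± 0.04 (SE) in shARID1B.3 (adjusted p = 0.00356), 0.09 ± 0.04 (SE) in shARID1B.2 (adjusted p = 0.0729) and -0.05 ± 0.04 (SE) in shARID1A/B.4.2 (adjusted p = 0.296). The last 2 passed under some other settings, and the sign in shARID1A/B.4.2 turned to a called increase of 0.14 when libraries were scaled by their total reads, which moved the median of all genes by 0.18 in the same direction. The antisense gene VIM-AS1, which overlaps the start of VIM, was at 42.5 to 123 in the 21 libraries.

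MYL9 (ENSG00000101335.10, chr20:36541484-36551447, plus strand), the regulatory light chain of smooth muscle myosin, was at or near the detection limit. The Control libraries held 1, 1 and 2 reads, and the 18 silenced libraries 0 or 1 read each. All lie under the level of 3 reads that a count of 0 allows, so no fold change is given, and a difference was not detectable at this depth. The non-muscle light chain genes MYL6, MYL12A and MYL12B were, by contrast, between 1076 and 15329.8 in every library.

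**Figure D3:**
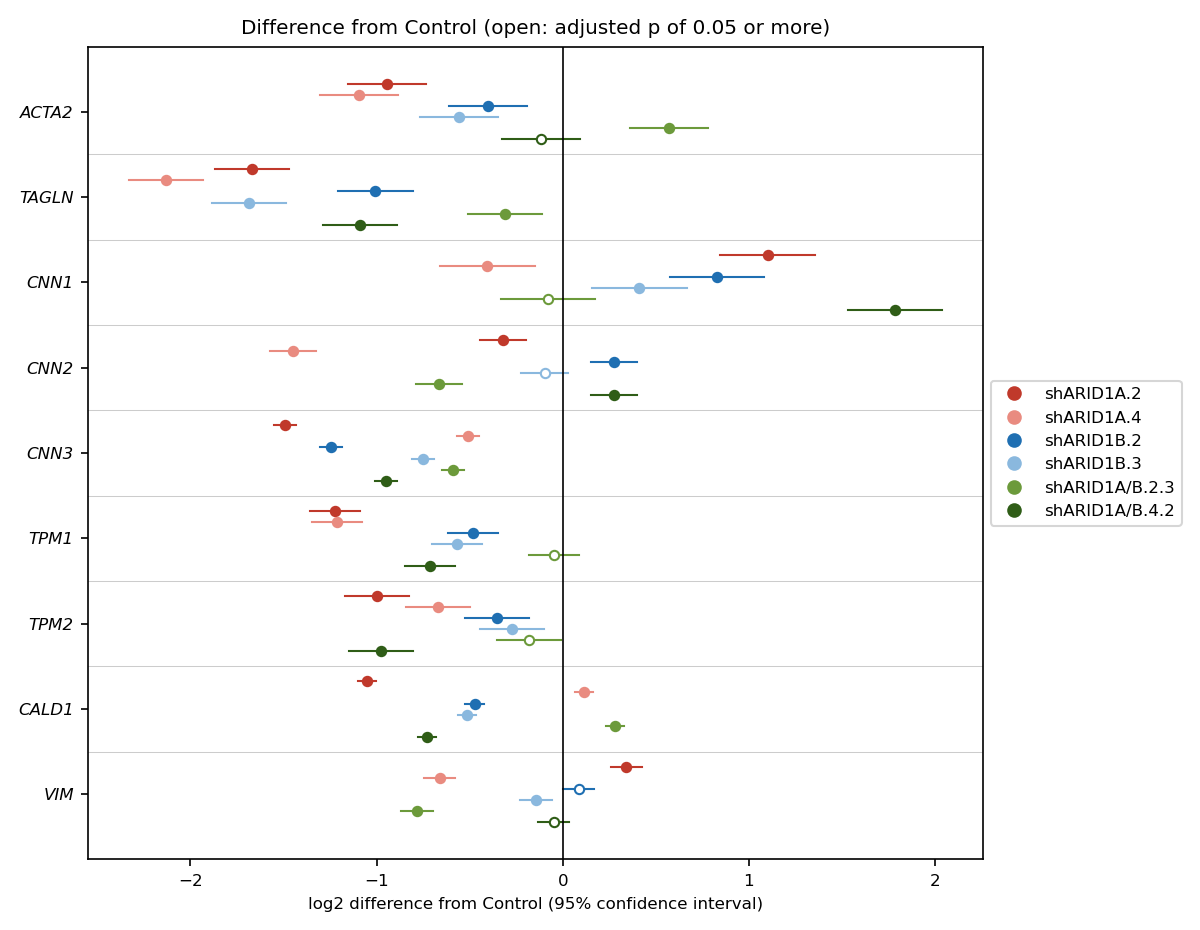
Log2 difference from Control (horizontal axis) with its 95% confidence interval for the 9 tested genes in the 6 silenced conditions, coloured by condition. Filled points were called at an adjusted p below 0.05. TAGLN, CNN3, TPM1 and TPM2 have all points left of 0, whereas CNN1, CNN2, CALD1, ACTA2 and VIM have points on both sides.

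The conditions that carry the same label gave different levels for many members, as they did for most genes tested. Between shARID1A.2 and shARID1A.4, in which both ARID genes were low, 7 of 9 members were called (75.8% of all genes, 38.4% higher and 37.3% lower). CNN1 was higher in shARID1A.2 than in shARID1A.4 by 1.51 on the log2 scale, CNN2 by 1.13, VIM by 1.004 and TAGLN by 0.46, while the differences of CALD1, CNN3 and TPM2 were -1.16, -0.98 and -0.33. ACTA2 and TPM1 were not called between these conditions. Between shARID1B.2 and shARID1B.3, in which ARID1A was low, 5 of 9 were called (66% of all genes, 33% in each direction), and the sizes were smaller: TAGLN 0.68, CNN1 0.42, CNN2 0.37, VIM 0.23 and CNN3 -0.49. Between shARID1A/B.2.3 and shARID1A/B.4.2, in which ARID1B was low, all 9 were called (74.9% of all genes, 37.1% higher and 37.8% lower), from -1.86 for CNN1 to 1.01 for CALD1. ACTA2, TAGLN, TPM1, TPM2, CNN3 and CALD1 were higher in shARID1A/B.2.3, and CNN1, CNN2 and VIM were lower.

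Over the 15 pairs of silenced conditions, the members' median log2 difference in size ranged from 0.23 between shARID1B.2 and shARID1B.3, through 0.26 between shARID1B.2 and shARID1A/B.4.2, to 1.18 between shARID1A.2 and shARID1A/B.2.3. In those pairs 5, 7 and 9 of the 9 members were called, beside 66, 65 and 77.4% of all genes. The pair shARID1A.2 and shARID1A.4, of the same label, stood at 0.98 and was exceeded by the pair shARID1A.2 and shARID1A/B.2.3 alone. All genes were called least often between shARID1A.2 and shARID1A/B.4.2 (53.5%), where 8 members were called at a median size of 0.54, and between shARID1A.4 and shARID1A/B.2.3 (55.5%), where 9 were called at a median size of 0.49. Between shARID1A.2 and shARID1B.2 8 members were called (62.4% of all genes) at a median size of 0.58.

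Averaged by label, most members were lower in the libraries labelled shARID1A than in the other silenced libraries, although fewer were called once differences between shRNAs entered the spread. Against those labelled shARID1B, 7 of 9 members were called, all lower (67.3% of all genes called, 34.6% higher and 32.8% lower), CNN3 and CALD1 being the members not called, and against those labelled shARID1A/B 9 were called, 8 of them lower (59.2%, with 30.5% higher and 28.7% lower). The libraries labelled shARID1A/B had 6 members higher and 3 lower than those labelled shARID1B (70.2%, with 35.1% higher and 35% lower). These tests use the spread between libraries of a condition. When the 2 conditions of a label were taken as a single group of 6 libraries, so that differences between shRNAs entered the spread, 4, 3 and 2 members were called, beside 21.4, 9.31 and 27.9% of all genes. That fit still counts the 6 libraries of a label as independent, although they come from only 2 conditions. Its adjusted p-values are therefore likely too small for a difference between labels. ACTA2 was called in all 3 comparisons of labels in that fit: -0.54 between shARID1A and shARID1B (adjusted p = 0.0105), -1.25 between shARID1A and shARID1A/B (adjusted p = 1.18e-05), and 0.71 between shARID1A/B and shARID1B (adjusted p = 0.00105). Its label averages thus ran shARID1A, then shARID1B, then shARID1A/B, from low to high. The 6 ACTA2 values labelled shARID1A were 573 to 720.0, and the 6 labelled shARID1B were 722 to 1003. The gap between them is narrow, and how many of all genes show such a gap was not counted. TPM1 was lower in shARID1A than in both other labels, -0.70 (adjusted p = 0.00038) and -0.84 (adjusted p = 0.000153). TAGLN was lower in shARID1A than in shARID1A/B, -1.20 (adjusted p = 0.000516), and higher in shARID1A/B than in shARID1B, 0.64 (adjusted p = 0.0204). CNN2 and TPM2 were lower in shARID1A than in shARID1B, -0.97 (adjusted p = 0.00797) and -0.52 (adjusted p = 0.0215). CNN1, CNN3, CALD1 and VIM were not called between labels in this fit.

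Across the 21 libraries the members fell into groups with like patterns, given here as a description over libraries that share conditions. TAGLN, TPM1 and ACTA2 tracked each other most closely (Pearson's r of log2 values of 0.907 between TAGLN and TPM1, 0.883 between ACTA2 and TPM1 and 0.873 between ACTA2 and TAGLN), and TPM1 with TPM2 gave 0.83 and CALD1 with CNN3 0.787. CALD1 ran opposite to VIM (-0.833) and to CNN1 (-0.831), and CNN1 opposite to CNN3 (-0.67). Outside the members, the 3 genes most like each by the same measure, among genes with a mean value of at least 50, were LRRC32 (0.922), TOMM40 (0.917) and TTYH3 (0.914) for ACTA2, WEE1 (0.976), FLT1 (0.964) and LRP6 (0.961) for TAGLN and ASTN2 (0.988), ITGA11 (0.974) and CALHM2 (0.962) for TPM1. For TPM2 they were SMAD3 (0.96), COL6A3 (0.959) and SRPX (0.955), for CALD1 GCLM (0.992), EIF4G3 (0.988) and SRC (0.982) and for VIM ATF6B (0.98), NFATC4 (0.976) and AC093627.5 (0.973). For CNN1 they were SMPD1 (0.952), ARPIN-AP3S2 (0.942) and SH2B1 (0.938), for CNN2 RAB11B (0.948), ROMO1 (0.947) and SLC27A6 (0.941) and for CNN3 PPP1CB (0.975), BRMS1L (0.965) and PDIK1L (0.965).

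Other genes of the contractile system were examined as lists. Of 30 tested actins and filament partners, 26, 23, 25, 17, 18 and 24 were lower than Control in the 6 silenced conditions, taken in the order used above (shARID1A.2 first and shARID1A/B.4.2 last), where 38.2, 36.6, 34, 32, 34 and 36.1% of all genes were lower, and the median log2 difference of the list was -0.78, -0.45, -0.34, -0.28, -0.19 and -0.46. In all 6 conditions 9 of the 30 were lower, beside 7.54% of all genes. Higher calls in the list numbered 2, 3, 0, 5, 6 and 3, where 37.9, 37, 31.6, 31.9, 35.2 and 35.1% of all genes were higher. TAGLN2, the transgelin of non-muscle cells, fell in each condition, with log2 differences of -2.37, -1.73, -1.34, -0.73, -1.04 and -1.57 in that order. TPM4, a cytoskeletal tropomyosin, gave -1.50, -0.89, -0.65, -0.91, -0.37 and -0.93, and CSRP1, a LIM protein of actin bundles, -1.41, -1.35, -0.24, -1.35, -0.63 and -1.40. CFL2 (cofilin 2, which severs filaments) and SYNPO (synaptopodin, an actin bundler) were lower in 4 conditions each, down to -2.42 and -2.25 in shARID1A.2. SYNPO was called higher than Control in 1 other condition.

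Of 23 tested genes of myosin II and its regulators, 16, 15, 15, 12, 13 and 15 were lower and 3, 4, 5, 7, 7 and 4 higher in the same order, beside 32 to 38.2% of all genes lower and 31.6 to 37.9% higher, with list medians of -0.55, -0.40, -0.19, -0.15, -0.15 and -0.40. MYLK, the kinase that phosphorylates the regulatory light chain, was lower in all 6 conditions, at -2.14, -2.97, -1.12, -0.999, -2.07 and -1.32. MYH10 and MYH9, the non-muscle myosin heavy chains, and the kinase gene ROCK2 were also lower in all 6, with -1.72, -1.36 and -1.22 in shARID1A.2. LIMK1, a kinase that inactivates cofilin, was higher in all 6, from 0.62 in shARID1B.3 to 1.70 in shARID1A/B.2.3.

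Of 14 tested genes of the SRF axis and its immediate targets, 12, 8, 9, 6, 8 and 11 were lower and 1, 6, 1, 8, 6 and 1 higher, beside the same shares of all genes, with list medians of -0.62, -0.22, -0.26, 0.15, -0.30 and -0.56. ANKRD1, CCN2 and CCN1, which respond to YAP and MRTF signalling, were lower in all 6 conditions, ANKRD1 at -2.29, -4.14, -1.46, -3.17, -2.31 and -0.89. EGR1, an immediate early gene, went both ways, from -3.16 in shARID1A/B.4.2 to 1.34 in shARID1B.3, and ELK3, a partner of SRF, was lower in 5 conditions and higher in shARID1A/B.2.3 (0.22). Among 14 tested intermediate filament genes beside VIM, 7, 5, 7, 7, 3 and 7 were lower and 5, 6, 4, 5, 7 and 5 higher, most of them near those shares of all genes. NES (nestin), at -3.04, -0.78, -1.29, -0.57, -0.31 and -2.73, and LMNB1 (lamin B1) were lower in all 6. PRPH (peripherin), a neuronal filament gene, was higher in all 6, between 0.58 and 1.54, NEFM (neurofilament medium chain) was higher in 5, and KRT19 (keratin 19) lower in 5.

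**Figure D4:**
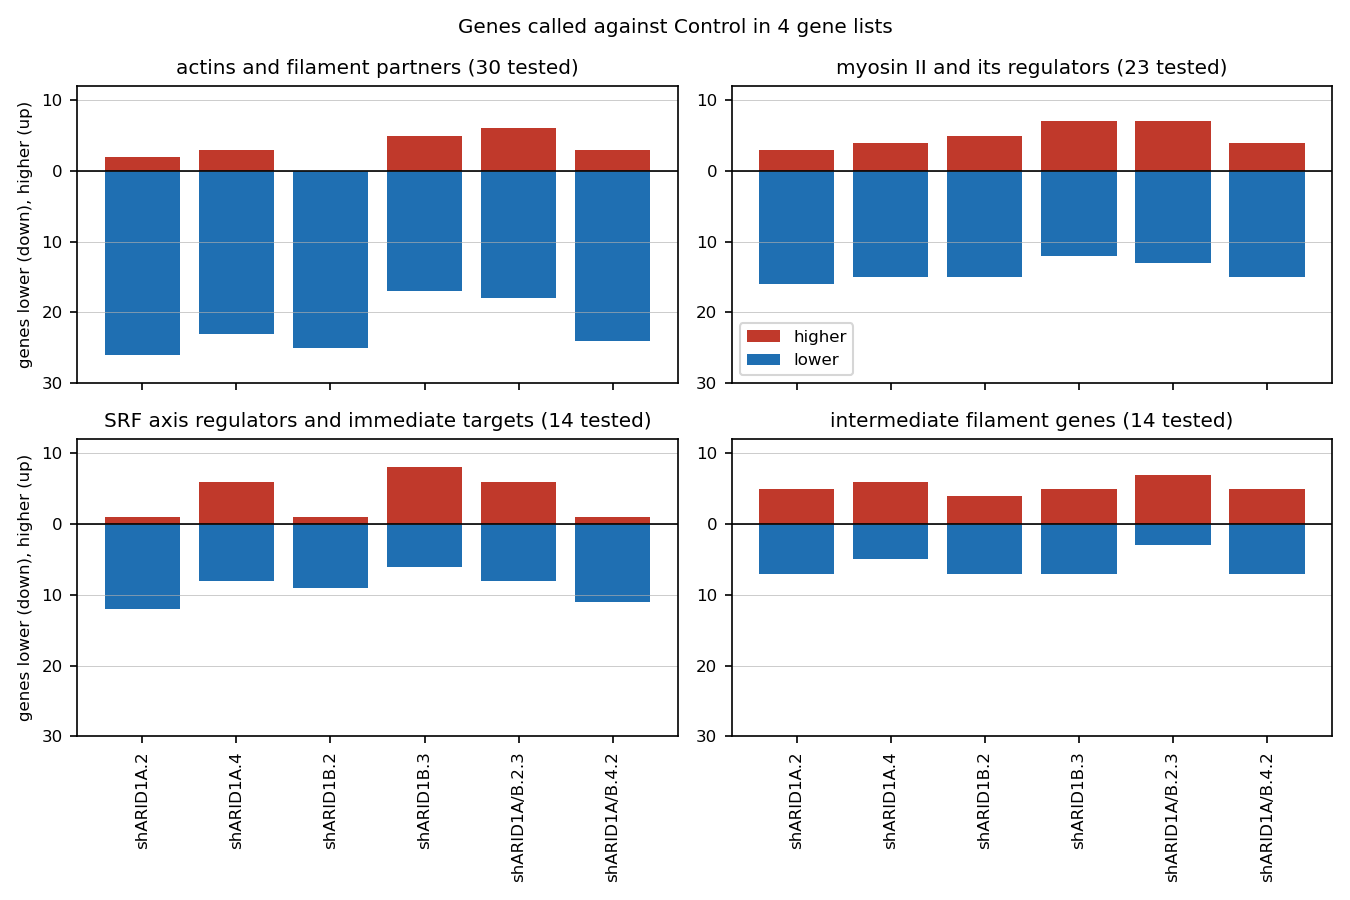
Number of genes called higher (bars above 0) and lower (bars below 0) than Control in 4 gene lists, for each silenced condition. In the list of actins and filament partners 17 to 26 of 30 genes were lower and at most 6 higher, while the intermediate filament list was divided, with 3 to 7 lower and 4 to 7 higher.

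The line's identity and the presence of other cell types were checked by markers. The adrenergic neuroblastoma genes PHOX2A, HAND2, GATA3 and ISL1 were at 2526 or more in every library. Of the 7 smooth muscle markers, MYOCD, MYH11 and DES, which define the cell type, reached at most 2, 8 and 10 reads in any library. The other 4, which had enough reads to be tested, were CNN1, SMTN (455 to 1083), ACTG2 (33 to 153) and LMOD1 (4.75 to 74). In shARID1A.4 all 4 were lower than Control, where 36.6% of all genes were lower. In shARID1A/B.4.2 CNN1, ACTG2 and LMOD1 were higher and SMTN lower, where 35.1% of all genes were higher and 36.1% lower. In shARID1A.2, shARID1B.2, shARID1B.3 and shARID1A/B.2.3, 2, 1, 1 and 0 of these 4 markers were higher and 1, 0, 2 and 1 lower. Of all genes 37.9, 31.6, 31.9 and 35.2% were higher there and 38.2, 34, 32 and 34% lower. The 13 fibroblast and Schwann cell markers together were at 44912 to 45365 in Control, 20815 to 22264 in shARID1A.2, 15100.0 to 15385 in shARID1A.4, 40719 to 42374 in shARID1B.2, 32981 to 34804 in shARID1B.3, 22397 to 22767 in shARID1A/B.2.3 and 27271 to 29584 in shARID1A/B.4.2, and so lower than Control in each silenced condition. COL1A1, LUM and THY1 made up much of that sum, and the genes did not move as one. Of the 12 tested markers 7, 10, 5, 6, 10 and 6 were lower and 3, 1, 3, 2, 1 and 3 higher in the order above. Of all genes, 32 to 38.2% were lower and 31.6 to 37.9% higher. The list medians were -0.36, -1.41, 0.03, -0.34, -0.84 and -0.34. DCN was higher in shARID1A.2, shARID1B.2 and shARID1B.3 (0.48, 1.27 and 0.62), COL3A1 in shARID1A.2 and shARID1B.2 (0.51 and 0.71) and THY1 in shARID1A/B.4.2 (0.64). SOX10, which defines Schwann cells, had 0 reads in all 21 libraries. The part of this in the members' differences was not tested. In bulk RNA, fewer cells with a transcript and less of it per cell cannot be told apart.

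Replicate 2 stood apart in 2 conditions. In shARID1B.3 8 of 9 members were higher in replicate 2 than in the mean of the other libraries (median 0.30 on the log2 scale), and in shARID1A/B.4.2 9 of 9 were (median 0.19), whereas the median in the other 5 conditions lay between -0.05 and 0.05. All calls that changed without these libraries are given with the genes above, except that ACTA2 and TPM1 were then called between shARID1B.2 and shARID1B.3 (0.25 and 0.21, adjusted p = 0.039 and 0.000566) VIM in shARID1A/B.4.2 was called lower than Control (-0.10, adjusted p = 0.0405) and CNN1 was no longer called between the labels shARID1A/B and shARID1B (0.18, adjusted p = 0.0738).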

How the data were processed

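Libraries were made from polyadenylated RNA with a stranded kit, and the submitters' processing notes name STAR 2.5.3a, RSEM 1.3.0, DESeq2 1.26.0 and the GRCh38 build without giving their roles. Whether counting used the strand is not given in the sources used here. The deposited values are a signal scaled by the authors. They equalled whole reads divided by 1 factor per library (0.841 to 1.29) for 100.0% of values within 0.05 read (largest deviation 0.0066), so that reads could be recovered and the depth was known. Differences were computed on log2(value + 1) with limma 3.58.1 (R 4.3.3), with a trend of variance on level, on all 21 libraries and 7 conditions, after edgeR 4.0.16's filterByExpr (18584 genes), with Benjamini-Hochberg adjustment over all genes. The pseudocount understates the change of genes with few reads. Sampling noise alone gives chi-square per degree of freedom near 1 between replicates, and 1.55 to 4.26 was found over the 21 replicate pairs, so that no libraries were counted as 1. Replicate numbers did not pair the libraries (correlation of same-numbered deviations -0.0879 to 0.0529).

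Alternatives were pseudocounts of 0.5 and 5, other filters and scalings, edgeR, DESeq2 1.42.0, a replicate block, array weights, fits on the compared libraries and leaving out each library. Scripts were tested on simulated data. Members and gene lists were chosen with earlier results of these data known. The genes named from each list were up to 5 with the largest mean difference over the 6 conditions among those called the same way in both conditions of a label, and marker and neighbouring genes could be named whole. MYL6, MYL12A and MYL12B are given beside MYL9 as levels alone, outside that rule. Coordinates are from GENCODE 29, in which 58541 of 60728 gene IDs matched without their version, and promoter windows from RefSeq GRCh38.p14. Tables of the authors' own comparisons (fold changes and p-values) were not used. No table column of values was left unmatched to a sample.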

Additional observations from a re-analysis of the deposited data

Results flagged for a closer look

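In 5 instances a gene was called in opposite directions against Control in the 2 conditions of a label, with the difference between those conditions itself called by limma. They concerned 4 genes. Of the 9 members, 3 met this in shARID1A, 0 in shARID1B and 2 in shARID1A/B, where 17.1, 14.5 and 18.5% of all 18584 genes did. CNN1 was higher in shARID1A.2 (1.10) and lower in shARID1A.4 (-0.40), a difference of 1.51 ± 0.12 (SE) on the log2 scale (adjusted p = 4.73e-11). VIM did the same (0.34 and -0.66, difference 1.004 ± 0.04, adjusted p = 4.67e-17). CALD1 was lower in shARID1A.2 (-1.05) and higher in shARID1A.4 (0.11), a difference of -1.16 ± 0.02 (adjusted p = 4.80e-23), and it was higher in shARID1A/B.2.3 (0.28) and lower in shARID1A/B.4.2 (-0.73), a difference of 1.01 ± 0.02 (adjusted p = 9.26e-22). CNN2 was lower in shARID1A/B.2.3 (-0.66) and higher in shARID1A/B.4.2 (0.28), a difference of -0.94 ± 0.06 (adjusted p = 4.25e-13). Each condition has 3 libraries, and the conditions of a label differ in their shRNAs and in the level of ARID1A or ARID1B. What sets them apart was not tested.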

How the results depend on the processing

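Of 2133 recomputed member differences, 2083 kept their direction and side of the threshold, 24 lost a call, 25 gained one and 1 reversed: VIM in shARID1A/B.4.2 against Control became 0.14 (adjusted p = 0.00462) when libraries were scaled to total reads, a scaling that moved the median of all genes by 0.18 there. Of the 24 lost calls, 16 arose when the conditions of a label formed 1 group, which left 4 members called between shARID1A and shARID1B, 3 between shARID1A and shARID1A/B and 2 between shARID1A/B and shARID1B. In that fit 21.4, 9.31 and 27.9% of all genes were called. Scaling to total reads gave 8 members called between shARID1B.2 and shARID1B.3, beside 67.1% of all genes. With a difference of at least 1 on the log2 scale also required, a rule chosen after seeing the data, 5, 4, 2, 1, 0 and 2 members were called against Control in the 6 conditions, from shARID1A.2 to shARID1A/B.4.2. The shares of all genes were 24.8, 21.4, 12, 11.8, 16.1 and 18.4%. VIM in shARID1B.3 lost its call under upper-quartile scaling (-0.07, adjusted p = 0.145). Leaving out single libraries gave 7 to 9 members called in shARID1A/B.4.2 against Control, 6 to 7 in shARID1A/B.2.3, 5 to 7 between shARID1B.2 and shARID1B.3 and 8 to 9 between shARID1A/B and shARID1B, where CNN1 was lost without any of 5 libraries. With all libraries kept, 71.2, 69.2, 66 and 70.2% of all genes were called in these comparisons. The cause of these changes was not tested.

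With the replicate number as a block, TPM2 in shARID1A/B.2.3 was called (-0.18, adjusted p = 0.0499), and no other call changed. The same-numbered libraries were not paired, and in 0 of 21 pairs of conditions did all 3 numbers correlate over 0.1.

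Limits were set by 3 libraries per condition, by 1 control shRNA, and for MYL9 by a depth at which 0 to 2 reads were found. Antisense reads could not be separated, since the strand setting of the counting was not given in the sources used here. With no filter, MYL9 entered the tests at 0 to 2 reads.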
